A study of Mus musculus with 6 samples.

Results

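The measurements describe 10 genes that encode chemokines, namely Ccl2, Ccl7, Ccl3, Ccl4, Ccl6, Ccl9, Cxcl1, Cxcl2, Cxcl5 and Cxcl12, in osteoblasts of mouse pups. They were chosen by symbol, and all 10 were found among the 27179 gene IDs of the count table. RNA sequencing was done on 3 libraries labelled as knockout for Cdc73 (also called Hrpt2, with the libraries titled as floxed and the mice described as conditional knockouts) and 3 labelled wildtype, all from C57Bl/6J pups aged 5 days. In both groups bones of the skull vault were digested with collagenase and cells were sorted for GFP, whose transgenic expression depends on Osteocalcin-Cre, a recombinase active in mature osteoblasts. The labels give the same gate for both groups. They do not say which exons are deleted, which Cre deletes them, or whether a library is 1 pup or a pool. Since separate animals are not stated, each p-value reflects how far these 6 libraries scatter, and that scatter may be technical.

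Chemokines are small secreted proteins that guide migrating cells through receptors coupled to G proteins. In CC chemokines the leading cysteines are adjacent, and in CXC chemokines another residue lies between them. In bone, Cxcl12 from stromal and osteoblast lineage cells holds blood-forming cells in the marrow through the receptor Cxcr4. Ccl2, Ccl7, Ccl3 and Ccl9 attract monocytes or osteoclast precursors, and Cxcl1, Cxcl2 and Cxcl5 attract neutrophils through Cxcr2. Many of the inflammatory members are induced by interleukin 1 and tumour necrosis factor through NF-κB.

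The genes lie on 3 chromosomes. Ccl2 (gene ID 20296, chr11:82035577-82037452) and Ccl7 (20306, chr11:82045712-82047525) are neighbours. Ccl9 (20308, chr11:83572917-83578636), Ccl6 (20305, chr11:83587886-83593087), Ccl3 (20302, chr11:83647843-83649378) and Ccl4 (20303, chr11:83648624-83664683) form a further stretch of the same chromosome, where the RefSeq span of Ccl4 overlaps that of Ccl3, so reads of the overlap cannot be told apart. Cxcl5 (20311, chr5:90759298-90761625), Cxcl1 (14825, chr5:90891245-90893121) and Cxcl2 (20310, chr5:90903899-90905938) sit together, while Cxcl12 (20315, chr6:117168535-117181368) stands alone. Coordinates are those of GRCm38.p6, the assembly behind mm10. Of the stretches of 50 bases in the GENCODE transcripts of Cxcl2, 5.84% also occur in its neighbour Cxcl3, so some Cxcl2 reads cannot be assigned with certainty. For Ccl9 the share found in other genes was 1.97% and for Cxcl5 0.693%, and it was 0% for the other members.

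The promoters of Cxcl1 and Cxcl2, the most abundant inflammatory CXC members here, are shown with that of Cxcl12, the tested member with a lower mean in knockout. Each is the 250 bases before the RefSeq transcription start in GRCm38.p6, on the plus strand (Cxcl1 chr5:90890995-90891244, Cxcl2 chr5:90903649-90903898, Cxcl12 chr6:117168285-117168534). Capitals mark matches to the NF-κB consensus on either strand.
Cxcl1: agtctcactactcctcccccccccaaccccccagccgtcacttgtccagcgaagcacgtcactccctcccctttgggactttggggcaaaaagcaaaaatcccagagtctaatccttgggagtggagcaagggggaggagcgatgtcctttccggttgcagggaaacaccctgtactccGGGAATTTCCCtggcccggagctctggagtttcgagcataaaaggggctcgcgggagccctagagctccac
Cxcl2: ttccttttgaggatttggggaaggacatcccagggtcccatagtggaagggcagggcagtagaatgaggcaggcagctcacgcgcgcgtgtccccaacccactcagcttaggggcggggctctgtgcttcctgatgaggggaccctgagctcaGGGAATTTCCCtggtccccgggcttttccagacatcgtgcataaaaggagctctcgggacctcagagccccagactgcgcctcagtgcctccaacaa
Cxcl12: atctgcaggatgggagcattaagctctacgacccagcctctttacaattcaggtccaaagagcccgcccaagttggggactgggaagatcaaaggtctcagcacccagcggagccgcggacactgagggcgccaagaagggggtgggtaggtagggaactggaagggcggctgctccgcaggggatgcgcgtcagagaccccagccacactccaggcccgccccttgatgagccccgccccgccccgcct
The Cxcl1 and Cxcl2 windows both hold the block GGGAATTTCCC, which reads as an overlapping consensus match on each strand. It lies 71 to 61 bases before the start of Cxcl1 and 97 to 87 bases before that of Cxcl2. Across 32851 mouse promoters of the same table and length, 3.9% held the NF-κB consensus and 0.0426% (14 promoters) held this exact block. With the bases that follow, the longest run common to both windows was GGGAATTTCCCTGG, found in 2 of all promoters. The Cxcl12 window had no match to the consensus and was the richest in G and C of the 6 windows found for members, at 64.4% against 59.2% for Cxcl1 and 60.0% for Cxcl2. Windows were found for Ccl3, Ccl6 and Ccl9 too, and of these Ccl9 held 1 NF-κB match, 35 to 26 bases before its start, and 1 match to the AP-1 consensus TGANTCA, which 6.75% of promoters hold. Ccl9 also held the letters TATAAA 3 times, present on either strand in 12.4% of promoters, and the other 5 member windows held neither TGANTCA nor TATAAA.

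Library totals were 14837272 to 16380767 counts in the knockout libraries and 13591925 to 20993962 in wildtype. At least 1 count was found for 17068 to 18024 genes in the knockout libraries and for 17947, 14608 and 15712 genes in wildtype 1, 2 and 3. Wildtype 2 and 3, with the fewest genes, also hold the 0 counts of Ccl3, Ccl6 and Cxcl5, and the part of gene detection in the chemokine differences was not tested. CPM stands for counts at a shared library size, set with TMM factors. Cdc73 itself measured 13.98, 14.73 and 14.40 CPM in knockout 1, 2 and 3, and 20.50, 12.80 and 21.73 CPM in wildtype 1, 2 and 3. The count covers the whole gene, groups overlapped, and no difference passed the quasi-likelihood test of edgeR (log2 fold change -0.36 ± 0.22 (SE), Benjamini-Hochberg adjusted p = 0.428), so this gene did not check the labels. Defining osteoblast markers were abundant, with Col1a1 at 143517 to 214896 CPM in knockout and 168662 to 185517 CPM in wildtype libraries. Wildtype 1 correlated across 13505 genes more closely with the knockout libraries (Pearson's r of log2 CPM 0.973 to 0.983) than with wildtype 2 and 3 (0.940 and 0.945), genes not being independent replicates.

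Of the 10 chemokine genes 9 had enough counts to be tested. For Ccl7, Cxcl1, Cxcl2 and Ccl6, 4 of the 9, all knockout values lay above all wildtype values, as they did for 10.6% of all genes tested. For 0 of the 9 they lay below, against 9.81% of all genes. Ccl2, Ccl3, Ccl4 and Ccl9 had higher means in knockout libraries with overlapping groups, and Cxcl12 had a lower mean with overlapping groups. Thus 8 of 9 had a positive log2 fold change, against 49.3% of all genes, and the median over the 9 was 1.01, against -0.01 over all 13505 genes. These tallies are a description, since the members were chosen with earlier results of these data known. Ccl3, Ccl4 and Ccl6 also reached the filter's minimum in 3 knockout but 2 wildtype libraries. Without a filter the median over all 10 was 0.98. After adjustment over all genes 0 of the 9 passed in edgeR (lowest adjusted p = 0.273), and 0% of all genes did. At an unadjusted p under 0.05 there were 3 chemokines that were higher (Ccl7, Cxcl1 and Cxcl2) and 0 that were lower, against 8.26% and 6.35% of all genes. DESeq2 placed 1 of the 9 past an adjusted p of 0.05, Ccl7, and called 1.61% of all genes as higher, while it gave Ccl6 no adjusted p. In bulk RNA of sorted cells, more cells of a type and more RNA per cell cannot be told apart.

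**Figure D1:**
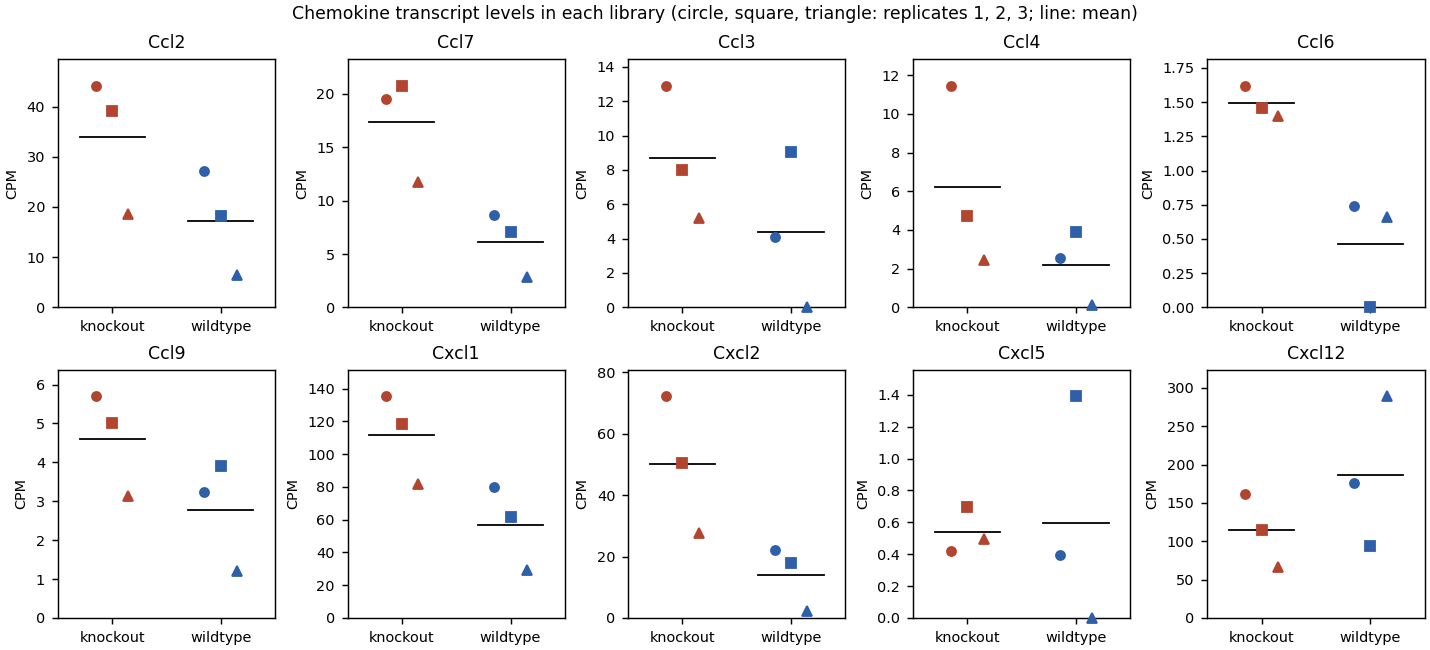
Level of each chemokine gene in CPM (vertical axis from 0, own scale per gene) in the 3 knockout and 3 wildtype libraries. Points are libraries and lines are group means. Ccl7, Cxcl1, Cxcl2 and Ccl6 have every knockout point above every wildtype point, and wildtype 3 is the lowest library for Cxcl1 and Cxcl2 and the highest for Cxcl12.

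Among the monocyte attractants, Ccl7 had the smallest p of all members. Ccl7, a ligand of Ccr2 and Ccr1, measured 19.5, 20.8 and 11.8 CPM in knockout 1, 2 and 3, against 8.66, 7.02 and 2.81 CPM in wildtype 1, 2 and 3. The groups did not overlap, knockout 3 was the lowest knockout library and wildtype 3 the lowest of all. Means were 17.3 ± 4.88 CPM in knockout and 6.16 ± 3.02 CPM in wildtype (SD, n = 3 each). The log2 fold change was 1.49 ± 0.38 (SE), with an edgeR adjusted p = 0.273, an unadjusted p = 0.00308 and a DESeq2 adjusted p = 0.0169. Over the alternatives the adjusted p of Ccl7 ran from 0.0131 to 0.947.

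Ccl2, the main ligand of Ccr2 on monocytes, measured 44.2, 39.2 and 18.6 CPM in knockout 1, 2 and 3, against 27.1, 18.2 and 6.45 CPM in wildtype 1, 2 and 3. Wildtype 1 lay above knockout 3, so the groups overlapped. The log2 fold change was 0.97 ± 0.46 (edgeR adjusted p = 0.357) and 0.57 ± 0.34 without wildtype 3. It was 0.32 ± 0.39 when wildtype 1 was the only control. Relative to its neighbour Ccl2, Ccl7 was higher in the knockout libraries. The ratio of Ccl7 to Ccl2 counts was 0.442, 0.530 and 0.633 in knockout 1, 2 and 3, against 0.319, 0.387 and 0.435 in wildtype 1, 2 and 3. These ratios need no scaling between libraries, and they did not overlap, although knockout 1 and wildtype 3 were close.

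Ccl3 and Ccl4, inflammatory chemokines made mainly by myeloid cells, were low and uneven. Ccl3 measured 12.9, 7.99 and 5.18 CPM in knockout 1, 2 and 3, against 4.11, 9.04 and 0 CPM in wildtype 1, 2 and 3. Ccl4 measured 11.5, 4.73 and 2.47 CPM in the knockout libraries, against 2.54, 3.89 and 0.119 CPM in the wildtype libraries. Both genes were at or near 0 in wildtype 3, with 0 counts of Ccl3 and 2 of Ccl4, and a count of 0 there allows up to 0.179 CPM. Both had overlapping groups. Ccl3 had a log2 fold change of 1.01 ± 0.90 and Ccl4 of 1.53 ± 0.82 (edgeR adjusted p = 0.573 and 0.390). With 1 library left out, Ccl3 ran from 0.42 (without wildtype 3) to 2.01 (without wildtype 2) and was 0.59 without knockout 1. Ccl4 ran from 0.72 (without knockout 1) to 2.15 (without wildtype 2) and was 0.97 without wildtype 3.

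Ccl6 and Ccl9 are CC chemokines of rodents that act through Ccr1, and Ccl9 attracts osteoclast precursors. Ccl9 measured 5.70, 5.00 and 3.13 CPM in knockout 1, 2 and 3, against 3.23, 3.89 and 1.19 CPM in wildtype 1, 2 and 3. The groups overlapped, and the log2 fold change was 0.74 ± 0.44 (edgeR adjusted p = 0.420), and 0.37 ± 0.33 without wildtype 3. Ccl6 measured 1.62, 1.46 and 1.40 CPM in knockout 1, 2 and 3, against 0.743, 0 and 0.657 CPM in wildtype 1, 2 and 3. Its groups did not overlap and its knockout libraries were the most even of any member, but the counts were few, at 27, 21 and 17 in knockout and 17, 0 and 11 in wildtype. The log2 fold change of Ccl6 was 1.61 ± 0.81 (edgeR adjusted p = 0.374). Without wildtype 2, where 0 counts allow up to 0.209 CPM, it was 1.07.

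The neutrophil attractants included Cxcl1, the inflammatory member of highest mean level. Cxcl1 measured 135.3, 118.3 and 81.4 CPM in knockout 1, 2 and 3, against 79.8, 61.7 and 29.6 CPM in wildtype 1, 2 and 3. The groups were just apart, knockout 3 and wildtype 1 differing by less than the spread within either group. Means were 112 ± 27.5 CPM in knockout and 57.0 ± 25.4 CPM in wildtype (SD, n = 3 each). The log2 fold change was 0.97 ± 0.33 (edgeR adjusted p = 0.291). With wildtype 1 as the only control it was 0.47 ± 0.27.

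Cxcl2, a close relative of Cxcl1 with the same promoter block, measured 72.2, 50.5 and 27.7 CPM in knockout 1, 2 and 3, against 22.0, 17.9 and 2.15 CPM in wildtype 1, 2 and 3. The groups did not overlap, and wildtype 3 was far below every other library. The log2 fold change was 1.84 ± 0.64 (edgeR adjusted p = 0.291), and 1.32 ± 0.35 without wildtype 3. Wildtype libraries differed among themselves more in Cxcl2 (10.2 times between the highest and the lowest) than in Cxcl1 (2.70 times), and the knockout libraries did so as well (2.60 and 1.66 times). The ratio of Cxcl2 to Cxcl1 counts was 0.533, 0.426 and 0.340 in knockout 1, 2 and 3, against 0.276, 0.290 and 0.0727 in wildtype 1, 2 and 3. Every knockout ratio was above every wildtype ratio.

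Cxcl5, made by epithelial and stromal cells in inflammation, was near the limit of detection. It had 7, 10 and 6 counts in knockout 1, 2 and 3, against 9, 20 and 0 counts in wildtype 1, 2 and 3. These counts did not separate the groups and fell short of the filter, and without a filter the log2 fold change was -0.13 ± 1.01 (edgeR adjusted p = 0.960). A difference was not detectable at this depth.

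Cxcl12, the homeostatic member, ran opposite to the inflammatory ones in its mean. It measured 161.8, 114.7 and 66.9 CPM in knockout 1, 2 and 3, against 175.8, 94.0 and 289.0 CPM in wildtype 1, 2 and 3. Wildtype 3 was the highest library and wildtype 2 lay inside the knockout range, so the groups overlapped. Means were 114 ± 47.4 CPM in knockout and 186 ± 97.9 CPM in wildtype (SD, n = 3 each). The log2 fold change was -0.70 ± 0.41 (edgeR adjusted p = 0.410), and -0.25 ± 0.36 without wildtype 3. Summed markers of stromal cells and fibroblasts, which also make Cxcl12, were 4643 to 6782 CPM in knockout and 5063 to 6159 CPM in wildtype libraries, with overlapping groups. Postn and Lum, matrix protein genes that lead that list, differed by 0.01 ± 0.23 and -0.01 ± 0.25.

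Counts of the other members were also set against the Cxcl12 counts of the same library. There were 0.836, 1.03 and 1.22 Cxcl1 counts for each Cxcl12 count in knockout 1, 2 and 3, against 0.454, 0.656 and 0.102 in wildtype 1, 2 and 3. The ratio of Cxcl2 to Cxcl12 was 0.446, 0.440 and 0.415 in the knockout libraries, against 0.125, 0.190 and 0.00744 in the wildtype libraries. For Ccl2, Ccl6 and Ccl7 the ratio to Cxcl12 was also higher in every knockout library, and for Ccl3, Ccl4, Ccl9 and Cxcl5 the groups overlapped. Cxcl1, Cxcl2, Ccl6 and Ccl7 were already apart in level. Among the members that overlapped in level, only Ccl2 was apart as a ratio to Cxcl12. As a share of the summed CPM of all 10 genes, Cxcl12 made up 34.8%, 31.6% and 30.5% in knockout 1, 2 and 3, against 54.2%, 43.3% and 87.1% in wildtype 1, 2 and 3. These ratios were chosen after the levels were seen and are given without a test.

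**Figure D2:**
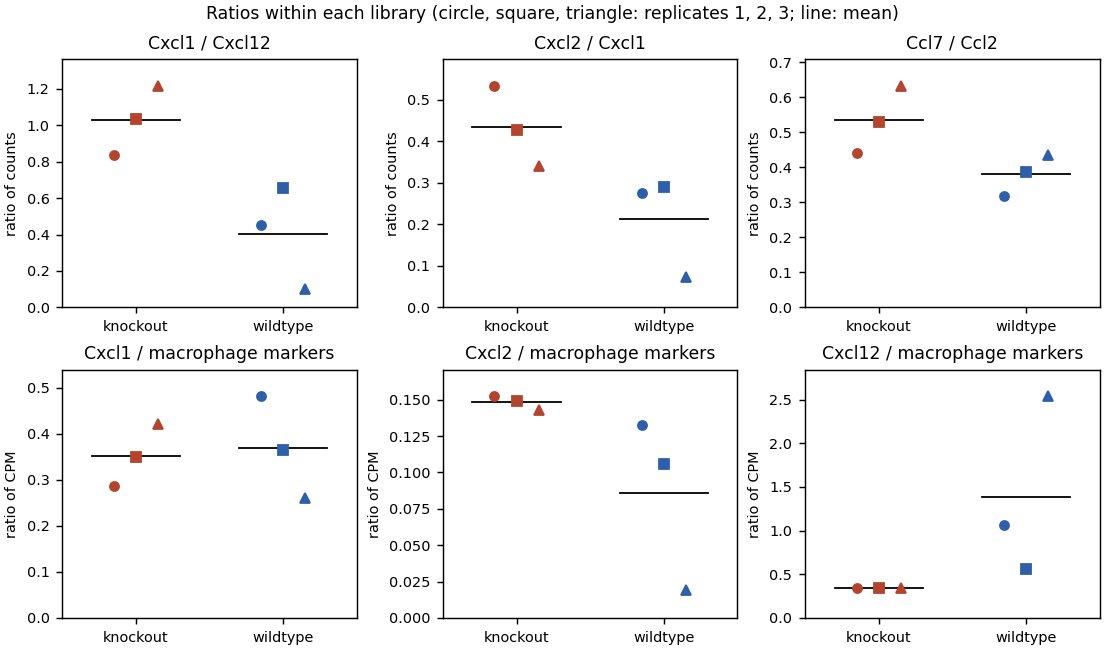
Ratios of chemokine counts (upper row) and of chemokine CPM to the summed CPM of 16 macrophage and monocyte markers (lower row) in each knockout and wildtype library. Points are libraries and lines are group means. Cxcl1 to Cxcl12, Cxcl2 to Cxcl1 and Ccl7 to Ccl2 are higher in every knockout library, and Cxcl1 to macrophage markers overlaps between the groups. Cxcl12 to macrophage markers is lower in every knockout library, where the marker sum is itself higher.

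Per kilobase of exon, Cxcl12 held a different place in the order of mean levels in each group. Lengths cover all annotated exons of a gene, 8176 bases for Cxcl12 and 1875 for Cxcl1, so the order depends on that choice. In CPM without this division, Cxcl12 had the highest mean in knockout (114, against 112 for Cxcl1) and wildtype (186, against 57.0). Per kilobase, Cxcl1 was the highest member in both, at 59.6 ± 14.7 CPM per kilobase in knockout and 30.4 ± 13.6 in wildtype (SD, n = 3 each). In knockout libraries Ccl2 (29.9 ± 11.9), Cxcl2 (24.2 ± 10.7) and Ccl7 (21.7 ± 6.09) came next, neighbours that did not differ beyond their spread, with Cxcl12 after them at 14.0 ± 5.80 CPM per kilobase. In wildtype libraries Cxcl12 came next after Cxcl1 at 22.8 ± 12.0 CPM per kilobase, ahead of Ccl2 (15.2 ± 9.12), Ccl7 (7.69 ± 3.77) and Cxcl2 (6.77 ± 5.06), again with overlapping spreads. Ccl3 and Ccl4 followed in both groups, at 11.3 ± 5.10 and 9.42 ± 7.09 CPM per kilobase in knockout and 5.72 ± 5.91 and 3.31 ± 2.90 in wildtype. Ccl9, Ccl6 and Cxcl5 were lowest, none above 1.51 CPM per kilobase on average in either group.

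**Figure D3:**
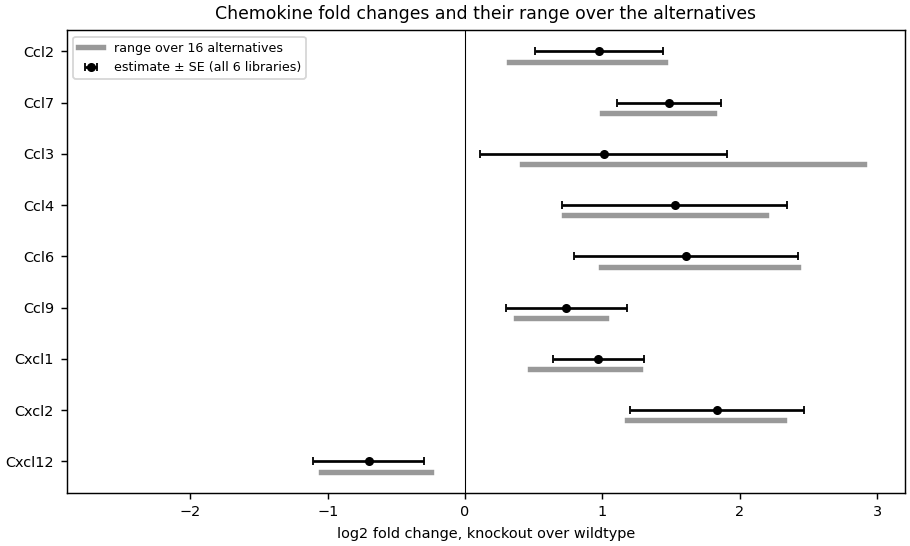
Log2 fold change of the 9 chemokine genes tested, knockout over wildtype, with its standard error (black, all 6 libraries) and the range over 16 alternative analyses (grey). The 8 inflammatory members stay above 0 and Cxcl12 stays below 0 under every alternative run, while most standard errors are wide.

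Macrophages and neutrophils are themselves sources of Ccl2, Ccl3, Ccl4, Ccl6, Ccl9, Cxcl1 and Cxcl2, and their markers also had higher means in knockout. All 16 macrophage and monocyte markers were higher in knockout, with a median log2 fold change of 1.19 against -0.01 over all genes, and their summed level was 194 to 474 CPM in knockout and 114 to 169 CPM in wildtype libraries. No marker of that list was at 0 in any library. Csf1r, the receptor for macrophage colony stimulating factor, measured 54.3 ± 18.4 CPM in knockout and 23.1 ± 9.04 CPM in wildtype, and Mrc1, the macrophage mannose receptor, 48.2 ± 18.7 CPM in knockout and 22.8 ± 8.91 CPM in wildtype (SD, n = 3 each). Neither passed, with edgeR adjusted p = 0.273 and 0.285.

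Neutrophil markers summed to 62.7 to 203 CPM in knockout and 22.4 to 61.4 CPM in wildtype libraries, with all 11 tested members higher and 2 of the 12 listed (Cxcr2 and Elane) at 0 in wildtype 2. The most abundant were S100a9, a subunit of calprotectin, at 27.0 ± 16.3 CPM in knockout and 8.62 ± 6.88 CPM in wildtype (SD, n = 3 each), and the granule protein gene Ngp. Ngp measured 40.6, 15.5 and 13.8 CPM in knockout 1, 2 and 3, against 4.50, 3.06 and 9.55 CPM in wildtype 1, 2 and 3, without overlap. Mast cell markers summed to 17.4 to 58.3 CPM in knockout and 6.69 to 17.5 CPM in wildtype, led by the protease genes Cma1 (log2 fold change 2.18 ± 0.58) and Tpsb2 (2.01 ± 0.54). Endothelial markers summed to 204 to 306 CPM in knockout and 94.6 to 199 CPM in wildtype, with Cdh5, the endothelial cadherin, at 1.32 ± 0.44 (2.08 without wildtype 1) and Eng, a co-receptor for transforming growth factor beta, at 0.18 ± 0.15 (-0.0259 with library size alone). Lymphocyte markers were scarce, with 2 of 10 tested and sums of 2.80 to 9.72 CPM in knockout and 1.74 to 2.99 CPM in wildtype. Of these, the T cell co-receptor gene Cd4 differed by 1.15 ± 0.47 and Cd79b, of the B cell receptor, by 1.08 ± 0.68, and without knockout 1 by 0.70 and 0.44. The T cell genes Cd3e, Cd3d and Cd8a of the same list had 0 to 3 counts in each library, so Cd4 alone does not mark T cells here. None of these marker genes passed in edgeR. DESeq2 placed 5 of 16 macrophage, 3 of 11 neutrophil, 3 of 5 mast cell and 4 of 12 endothelial markers past the threshold. All were higher, among them Csf1r, Ngp, Cma1 and Tpsb2, against 1.61% of all genes called higher. The part of these markers in the chemokine differences was not tested.

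Set against the macrophage markers of the same library, 3 of the 4 chemokines without overlap in level did overlap. The ratio of Cxcl1 to the summed macrophage markers was 0.286, 0.350 and 0.420 in knockout 1, 2 and 3, against 0.481, 0.364 and 0.260 in wildtype 1, 2 and 3. For Ccl7 it was 0.0411, 0.0615 and 0.0607 in knockout, against 0.0522, 0.0415 and 0.0246 in wildtype. The groups overlapped for both genes, and for Ccl2, Ccl3, Ccl4, Ccl6, Ccl9 and Cxcl5 as well. Cxcl2 remained apart by a narrow margin, at 0.152, 0.149 and 0.143 in knockout 1, 2 and 3, against 0.133, 0.106 and 0.0189 in wildtype 1, 2 and 3. The ratio of Cxcl12 was lower in every knockout library, at 0.341, 0.340 and 0.345, against 1.06, 0.555 and 2.54 in wildtype 1, 2 and 3. The marker sum alone was apart, at 194 to 474 CPM in knockout and 114 to 169 CPM in wildtype libraries. The ratio combines this sum with the level of Cxcl12, which overlapped but had a lower mean in knockout. The part of each in the separate ratios was not tested.

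Of 10 osteoblast markers 8 were lower in knockout and 2 higher, against 49.3% of all genes higher, with a median log2 fold change of -0.27. At an unadjusted edgeR p under 0.05 there were 3 lower and 1 higher, against 6.35% and 8.26% of all genes. The lower were Sp7, the gene for the transcription factor osterix (-0.62 ± 0.19), and Ifitm5, a membrane protein gene of osteoblasts (-0.59 ± 0.25). Pth1r, for the parathyroid hormone receptor, was lower too (-0.51 ± 0.22). The higher was Dmp1, at 288, 258 and 315 CPM in knockout 1, 2 and 3. In wildtype 1, 2 and 3 Dmp1 measured 223, 195 and 225 CPM, without overlap (0.42 ± 0.16, edgeR adjusted p = 0.312). These genes were named after their values were seen. Sp7 was lower in every knockout library and passed in DESeq2 but not in edgeR (adjusted p = 0.277). The collagen genes Col1a1 (-0.10 ± 0.25) and Col1a2 (-0.12 ± 0.23) make up most of the summed level of this list, which overlapped between the groups. Of 6 osteoclast markers tested 5 were higher, among them Mmp9, a gelatinase, at 184 ± 17.2 CPM in knockout and 91.9 ± 25.2 CPM in wildtype (SD, n = 3 each), while the protease gene Ctsk differed by -0.05 ± 0.23. Chondrocyte markers had the largest median of the marker lists, 2.13, and summed levels of 11801 to 26606 CPM in knockout and 3545 to 10082 CPM in wildtype libraries. Col2a1 led that list at 9548 ± 5488 CPM in knockout and 1804 ± 2152 CPM in wildtype. Col11a2 followed at 4778 ± 478 CPM in knockout and 3231 ± 667 CPM in wildtype. For Col2a1, wildtype 1 (4288 CPM) was near knockout 3 (4958 CPM), and wildtype 2 and 3 were at 518 and 606 CPM. Its log2 fold change was 2.40 ± 0.79, and 1.14 with wildtype 1 as the only control. DESeq2 placed 1 of 12 chondrocyte markers past the threshold, Sox9, which was higher, against 1.61% of all genes called higher.

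The other chemokine ligands pointed mostly the same way. Of 28 listed, 10 had enough counts to be tested, 9 of them higher in knockout, against 49.3% of all genes. Their median log2 fold change was 1.13. In edgeR 0 passed, and in DESeq2 Cxcl16 did (adjusted p = 0.0443), against 1.61% of all genes called higher. Cxcl16, a membrane-bound ligand of Cxcr6, measured 7.05 ± 2.82 CPM in knockout and 2.61 ± 0.902 CPM in wildtype (1.43 ± 0.38), and Cxcl14, a CXC chemokine of epithelia and mesenchyme, 22.4 ± 6.16 CPM in knockout and 11.6 ± 3.21 CPM in wildtype (0.95 ± 0.27, both edgeR adjusted p = 0.273, SD over n = 3). Both were higher in every knockout library. Such separation held for 3 of the 10 tested ligands, against 10.6% of all genes. Cx3cl1, the membrane-anchored ligand fractalkine, did not overlap either (0.73 ± 0.30), while Cxcl10, an interferon-inducible ligand of Cxcr3, measured 24.1, 15.4 and 6.83 CPM in knockout 1, 2 and 3, against 7.39, 8.69 and 1.61 CPM in wildtype 1, 2 and 3 (1.39 ± 0.57). Wildtype 3 was again the lowest library for Cxcl10.

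Among 23 chemokine receptors 9 were tested, 7 higher and 2 lower, against 49.3% of all genes higher. The median log2 fold change of the 9 was 0.54. In edgeR 0 passed. In DESeq2 2 passed, Ccrl2 (adjusted p = 0.0145) and Ackr3 (adjusted p = 0.0443), both higher, against 1.61% of all genes called higher. Of the 9 tested, 3 were higher in every knockout library, against 10.6% of all genes, and both receptors of Cxcl12 were among them. Cxcr4, the signalling receptor, measured 17.3, 12.9 and 7.08 CPM in knockout 1, 2 and 3, against 5.55, 6.88 and 4.30 CPM in wildtype 1, 2 and 3 (1.16 ± 0.33). Ackr3, which takes up Cxcl12 and degrades it, measured 40.0, 41.1 and 30.0 CPM in knockout, against 21.1, 26.6 and 19.6 CPM in wildtype (0.73 ± 0.19). Ccrl2, a receptor that binds chemerin without signalling, measured 30.9, 18.8 and 8.88 CPM in knockout, against 6.43, 8.48 and 3.70 CPM in wildtype (1.66 ± 0.43). These receptors had an edgeR adjusted p = 0.273. Ackr4, a scavenger of homeostatic CC chemokines, had a lower mean with overlapping groups (-0.75 ± 0.34, and -0.33 without wildtype 3).

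Ccr2 and Cxcr2, receptors of several inflammatory members, were low. Ccr2, the receptor of Ccl2 and Ccl7, measured 1.30 ± 0.0338 CPM in knockout and 0.883 ± 0.449 CPM in wildtype (0.54 ± 0.55). Cxcr2, the receptor of Cxcl1, Cxcl2 and Cxcl5, measured 0.780, 0.139 and 0.165 CPM in knockout 1, 2 and 3, against 0.350, 0 and 0.537 CPM in wildtype 1, 2 and 3. It was too low to be tested, and its groups overlapped. Ccr1, a receptor of Ccl6, Ccl7 and Ccl9 that was chosen after its values were seen, measured 4.92, 3.89 and 2.96 CPM in knockout 1, 2 and 3, against 2.01, 3.13 and 1.25 CPM in wildtype 1, 2 and 3 (0.89 ± 0.41). The groups overlapped, and the edgeR adjusted p = 0.349.

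Cytokines that induce chemokines and genes of the NF-κB pathway were all abundant enough to be tested. Of 21 genes tested 18 were higher in knockout and 3 lower, against 49.3% of all genes higher, with a median log2 fold change of 0.50. For 9 of the 21 all knockout values lay above all wildtype values, against 10.6% of all genes. Il1b, which encodes interleukin 1 beta, measured 20.9, 17.4 and 8.23 CPM in knockout 1, 2 and 3, against 4.37, 5.98 and 2.75 CPM in wildtype 1, 2 and 3 (1.84 ± 0.38). Il1a, for interleukin 1 alpha, measured 5.82, 2.64 and 1.40 CPM in knockout, against 0.656, 0.0695 and 0 CPM in wildtype, with few counts in the wildtype libraries. The groups did not overlap for either gene. Tnfaip3, a target of NF-κB that restrains it, had 88.7 ± 21.2 CPM in knockout and 49.8 ± 14.0 CPM in wildtype (0.83 ± 0.25, SD over n = 3), and Il6, a cytokine induced with the chemokines, 14.5 ± 4.58 CPM in knockout and 6.02 ± 3.51 CPM in wildtype (1.27 ± 0.46). In edgeR 0 of the 21 passed (lowest adjusted p = 0.273). In DESeq2 Il1b (adjusted p = 0.00122) and Il1a (adjusted p = 0.0114) did, against 1.61% of all genes called higher. The ratio of Cxcl1 to Tnfaip3 was 1.33, 1.18 and 1.27 in knockout 1, 2 and 3, against 1.24, 1.26 and 0.817 in wildtype 1, 2 and 3. That ratio was chosen after its values were seen; it overlapped between the groups, with wildtype 3 lowest.

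Genes that present or degrade chemokines were listed as well. Of 11 tested 9 were higher, against 49.3% of all genes, with a median log2 fold change of 0.10. Some of the higher ones were near 0, such as Sdc1 (0.0042), Mmp14 (0.07) and Mmp2 (0.08). In edgeR 0 passed, and in DESeq2 Mmp9 and Sdc4 did, both higher, against 1.61% of all genes called higher. Sdc4, a heparan sulfate proteoglycan that binds chemokines, had 163 ± 17.6 CPM in knockout and 83.8 ± 24.9 CPM in wildtype (0.96 ± 0.23, SD over n = 3), and Ext1, an enzyme of heparan sulfate synthesis, 77.5 ± 2.77 CPM in knockout and 57.0 ± 4.44 CPM in wildtype (0.44 ± 0.14). Neither gene overlapped between the groups. In this list 3 of the 11 tested were higher in every knockout library, against 10.6% of all genes. Dpp4, a peptidase that inactivates Cxcl12, measured 5.40, 4.73 and 1.81 CPM in knockout 1, 2 and 3, against 2.75, 0 and 1.43 CPM in wildtype 1, 2 and 3 (1.47 ± 0.86, and 0.90 without wildtype 2 or 2.40 without wildtype 1), with overlapping groups.

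**Figure D4:**
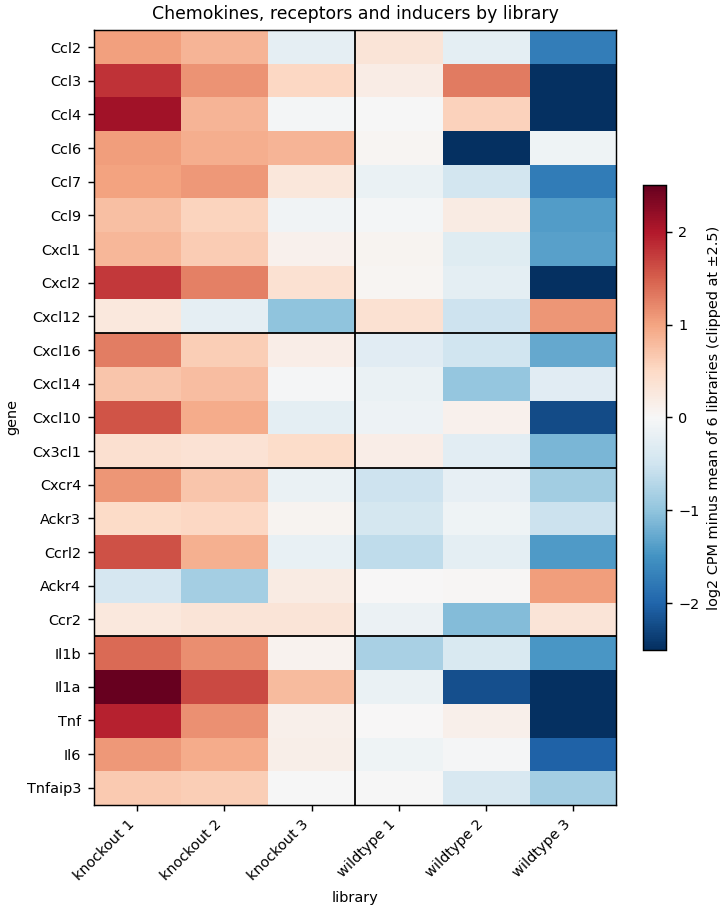
Log2 CPM of each gene minus its mean over the 6 libraries (colour, clipped at ±2.5), with the 3 knockout libraries on the left. Blocks from top to bottom are the 9 chemokines tested, other ligands, receptors, and inducers with Tnfaip3. Knockout 1 and 2 are red and wildtype 3 is blue for most inflammatory genes, while Cxcl12 and Ackr4 are highest in wildtype 3.

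The chemokines differed in how their levels moved from library to library. Likeness was measured as the root mean square difference between log2 CPM profiles, each centred over the 6 libraries, as a description of both groups together. Ccl9 and Cxcl1 (0.23), Ccl2 and Cxcl1 (0.25), Ccl7 and Cxcl1 (0.29) and Ccl2 and Ccl7 (0.31) were the nearest pairs. Cxcl2 lay nearer to Ccl4 (0.45) than to Cxcl1 (0.90), and Cxcl12 lay 1.19 or more from every other member. Other genomic neighbours were farther apart, with Ccl3 and Ccl4 at 0.72 and Ccl6 and Ccl9 at 1.39. These distances lean on libraries at or near 0 counts. In wildtype 2, with 0 counts of Ccl6, the centred values were -2.77 for Ccl6 and 0.21 for Ccl9. In wildtype 3, with 0 counts of Ccl3 and 2 of Ccl4, they were -4.92 and -3.47. The same library held -3.22 for Cxcl2 and -1.36 for Cxcl1.

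Among 9612 other named genes averaging at least 5 CPM, those nearest to Cxcl1 were Noct, which encodes nocturnin (0.08), Epas1, which encodes a hypoxia-inducible factor (0.08), and the transcription factor gene Ets2 (0.09). Ets2 measured 82.0, 79.6 and 53.2 CPM in knockout 1, 2 and 3, against 51.5, 36.0 and 20.5 CPM in wildtype 1, 2 and 3. Nearest to Cxcl2 was Tnf (0.20), the gene for tumour necrosis factor, followed by the membrane receptor gene Gprc5a (0.32) and Plau, for urokinase (0.33). Tnf measured 26.9, 15.7 and 7.73 CPM in knockout 1, 2 and 3, against 7.04, 7.65 and 0.597 CPM in wildtype 1, 2 and 3, a log2 fold change of 1.72 ± 0.69 (edgeR adjusted p = 0.320). Its groups did not overlap, although knockout 3 and wildtype 2 were nearly equal. Among those nearest to Cxcl12 were Limch1, for an actomyosin regulator (0.14), and Rcsd1, for a protein that binds capping protein (0.33). Limch1 measured 43.4, 24.5 and 15.4 CPM in knockout 1, 2 and 3, against 34.6, 20.7 and 68.4 CPM in wildtype 1, 2 and 3, with wildtype 3 highest as for Cxcl12.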

How the data were processed

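RNA sequencing measured transcripts in 3 knockout and 3 wildtype libraries. The authors deposited a table of whole-number read counts for each gene, not normalized. Per the submitters' processing notes, CASAVA 1.7, Subread and featureCounts were used with mm10. Annotation and strand use: not given in the sources used here, so reads from overlapping or antisense genes, Ccl3 and Ccl4 among them, cannot be separated. Gene IDs were named from RefSeq (25275) and GENCODE M21 (18 more), and 1886 unnamed IDs were kept.

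From the counts, edgeR 4.0.16 in R 4.3.3 was run with filterByExpr, TMM factors (0.813 to 1.09) and a two-sided quasi-likelihood test, with genotype the sole term for the 6 libraries. The Benjamini-Hochberg adjustment covered 13505 genes with a threshold of 0.05. Fold changes are log2, knockout over wildtype, ± standard error. Of the chemokines, Ccl3, Ccl4 and Ccl6 reached the filter's minimum in 3 knockout and 2 wildtype libraries, Cxcl5 in 1 of each, and the others in all 6. Log2 CPM profiles used a prior count of 2. No pair of libraries agreed within sampling noise (chi-square per degree of freedom 18.3 to 139). On simulated data for this comparison, 32 of 100 genes changed 2-fold and 83 of 100 changed 4-fold were called, with 6 false calls, over 13505 genes. The simulated libraries of a group varied independently around 1 mean per gene. They lacked the likeness of wildtype 1 to the knockout libraries. The real fit called 0 genes, so the simulated shares need not hold for the real libraries.

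Besides the 10 chemokines and Cdc73, genes were named by rule: up to 4 of smallest p in each pathway list, Cxcr4, Ackr3, Ccr2 and Cxcr2, the 2 most abundant of each marker list, and the 3 nearest profiles to each of the 3 most abundant chemokines. Of the genes this rule takes, 1 is not reported here. Members and lists were chosen with earlier results of these data known. Alternatives were DESeq2 1.42.0, limma 3.58.1 voom with and without quality weights, other scaling and filters, the replicate block, each library left out, and a fit with wildtype 1 as its single control, whose variation is taken from the knockout libraries. Promoter motifs were searched in the 250 bases before each RefSeq start, not the full window of the table. Limits from counts of 0 use 3 counts per library and cover counting error only.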

Additional observations from a re-analysis of the deposited data

How the results depend on the processing

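All 9 tested chemokines kept their direction in each of the 16 alternatives, and their median log2 fold change ran from 0.61 (without wildtype 3) to 1.58 (voom). Leaving out 1 library each gave medians of 0.61 to 1.37. With library size alone the median of all genes moved to -0.21 and that of the chemokines was 0.85. The number of chemokines past the threshold was 1 with DESeq2 (Ccl7) and 4 with the replicate block (Ccl2, Ccl7, Cxcl1 and Cxcl2, where that fit called 1.67% of all genes as higher), and 0 to 0 with 1 library left out. Over all genes 24 passed without a filter, 248 with DESeq2, 236 with the replicate block and 0 to 409 with 1 library left out, the 409 being without wildtype 1. Deviations of same-numbered libraries from their group means correlated at 0.115, -0.0743 and 0.222, and wildtype 1 matched knockout 2 best (0.347), so the numbers were not taken to pair the libraries. Under the replicate block 1 of 9 receptors passed (Ccrl2), 2 of 10 other ligands (Cxcl10 and Cxcl16), 5 of 21 inducers, 6 of 16 macrophage, 1 of 11 neutrophil, 8 of 12 endothelial and 11 of 12 chondrocyte markers, all higher. Without wildtype 1, 10 of 12 chondrocyte and 9 of 12 endothelial markers passed, and 0 of 16 macrophage markers. That fit called 2.13% of all genes as higher. Some genes near 0 changed sign. Postn was -0.21 with library size alone, -0.0165 with upper-quartile factors, -0.0521 with voom and quality weights and -0.15 to 0.22 with 1 library left out. Eng was -0.0259 with library size alone. With wildtype 1 as the only control Ctsk was 0.27 and Lum 0.26. With 1 library left out Ctsk ran from -0.21 to 0.21, Lum from -0.28 to 0.15 and Col1a1 from -0.33 to 0.0057. The cause was not tested.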
